A study of Rattus norvegicus with 16 samples.

Results

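The respiratory chain genes described here encode the subunits of the 4 electron-transfer complexes and of ATP synthase that are made from nuclear DNA. They were measured in the normal distal colon of 16 rats. A gene was taken when the accession of its array probe mapped to a rat symbol of the Nduf, Sdh, Uqcr, Cyc1, Cox4 to Cox8 or Atp5 families, with the brightest probe standing for a gene that had several. This gave 76 of the 15159 named genes on the array, 31 of complex I, 4 of complex II, 8 of complex III, 18 of complex IV (cytochrome c oxidase) and 15 of ATP synthase. Of the 76, 75 are protein-coding and 1, Cox6c-ps1, is a transcribed pseudogene. Another 35 rat genes with such symbols, among them Cyc1 and the tissue-restricted forms Cox7a1, Cox7b2 and Ndufa4l2, had no probe matched here and were not analysed.

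All 16 rats were male, 97 days old and (ACIxF344)F1, with 4 in each of 4 groups: wildtype untreated, wildtype given DSS, Pirc untreated and Pirc given DSS. Pirc rats carry 1 mutant and 1 wildtype copy of Apc, the tumor suppressor that restrains Wnt signalling in the intestine, and the mutant copy has a nonsense change. DSS (dextran sodium sulfate, 500000 MW) is a polymer that injures the colon lining. It was given at 4%, on days 40 to 47 and again on days 54 to 61, so that the colon was sampled 36 days after the last dose. The labels name the tissue as normal distal colon and do not say how it was taken. The study's methods describe scraped normal epithelium, but for untreated rats and for arrays of another format. Either kind of sample can hold several cell types, so fewer cells of a type and less RNA per cell cannot be told apart.

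Complex I takes electrons from NADH and complex II (succinate dehydrogenase) takes them from succinate. Ubiquinone carries them to complex III, cytochrome c carries them on to complex IV, which reduces oxygen, and the protons pumped along the way drive ATP synthase. Most subunits are used by every cell, but several complex IV subunits exist in alternative forms that are favoured in heart and skeletal muscle, lung or testis. Colonocytes lean on this chain because much of their fuel is butyrate, which is oxidised in mitochondria.

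Promoters of 4 genes are shown, for the motifs known from respiratory genes and for genes described below. RefSeq (GRCr8) gave a promoter for 66 of the 76 genes, and 300 bases of each, from 250 before to 50 after the annotated start, were searched on both strands. The core motif of NRF1, an activator of respiratory genes, was in 6 of 66 (9.09%) and in 2.09% of all 33469 promoters of that length. CCGGAAG, a core of ETS factors such as GABP, was in 20 of 66 (30.3%) and in 8.75% of all. The consensus site of the muscle factor MEF2 was in 1 of 66 (1.52%), the promoter of Cox6a2, and in 0.565% of all. No 2 of these matches overlapped in the sequences printed. The 66 were limited to 1 promoter per gene. The 33469 were limited neither in this way nor to protein-coding genes, so the 2 shares come from unlike sets. A match is a description of letters and not a binding site.

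Printed 5′ to 3′ on the strand of the gene are the 150 bases before the start of 4 genes. Atp5me (a small subunit of the ATP synthase membrane part) holds both of the common cores, Uqcrc2 (complex III) holds the ETS core at 2 places, Cox6a2 holds the MEF2 site, and Ndufa4 holds none of the 3. Capitals mark the NRF1 core, the MEF2 site and CTTCCGG, which is CCGGAAG read from the other strand. They come from chr14:1464710-1464859 (plus strand), chr1:184599090-184599239 (plus), chr1:192219717-192219866 (minus) and chr4:40975560-40975709 (minus) in the order Atp5me, Uqcrc2, Cox6a2, Ndufa4.
Atp5me: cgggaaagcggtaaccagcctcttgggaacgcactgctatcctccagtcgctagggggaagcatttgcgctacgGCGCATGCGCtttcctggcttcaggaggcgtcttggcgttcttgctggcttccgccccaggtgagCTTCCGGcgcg
Uqcrc2: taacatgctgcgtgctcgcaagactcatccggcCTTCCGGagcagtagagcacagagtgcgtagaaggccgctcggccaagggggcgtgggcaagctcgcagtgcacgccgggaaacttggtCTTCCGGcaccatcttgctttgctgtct
Cox6a2: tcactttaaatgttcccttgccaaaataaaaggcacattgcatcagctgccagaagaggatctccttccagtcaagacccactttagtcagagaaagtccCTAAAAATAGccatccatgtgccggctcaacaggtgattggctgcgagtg
Ndufa4: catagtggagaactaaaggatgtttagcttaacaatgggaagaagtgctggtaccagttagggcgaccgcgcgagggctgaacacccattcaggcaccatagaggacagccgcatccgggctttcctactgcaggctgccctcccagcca

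The arrays had 1 colour and lay 8 to a slide, with 2 rats of every group on each of 2 slides. The 75th percentile of signal ran from 875.36 to 2194.03 between arrays, 71.11% to 80.32% of spots were well above background and 0 were saturated. On all 16 arrays 74 of the 76 genes exceeded background clearly, Cox6a2 did so on 14 and the testis form Cox8c on 0. Levels below are log2 of the signal relative to the array's own 75th percentile, so that a difference of 1 is a factor of 2, and they cannot be compared between genes. Epcam, Vil1 and the other measured colonocyte markers, 11 in all, likewise did so on each array. Untreated Pirc rat 23 and DSS-treated Pirc rat 16 stood apart, with most chain genes high in both, and counts that change without them are given beside the results.

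DSS left nearly all respiratory chain genes close to their untreated level. Over both genotypes 1 of the 76 rose (Cox6a2) and 2 fell (Ndufa7 and Cox8b) at an adjusted p of 0.05 or less in limma, and none of the 3 by a factor of 2, which 5.99% of all probes reached. These 3 were 3.95% of the genes, where 17.2% of all probes passed, or 20% of the probes well above background on all 16 arrays. The median log2 change was 0.05 for the 76 genes and 0.06 for all probes. The 95% interval of the change lay wholly within a factor of 1.5 either way for 70 of 76 genes (92.1%), against 48.7% of all probes and 65.4% of those above background. The count of 3 became 6 without untreated Pirc rat 23 and 5 without treated Pirc rat 24. The 6 genes with wider intervals were Uqcrq, Cox6a2, Cox6b2, Cox8b, Cox8c and Atp5mg.

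**Figure D1:**
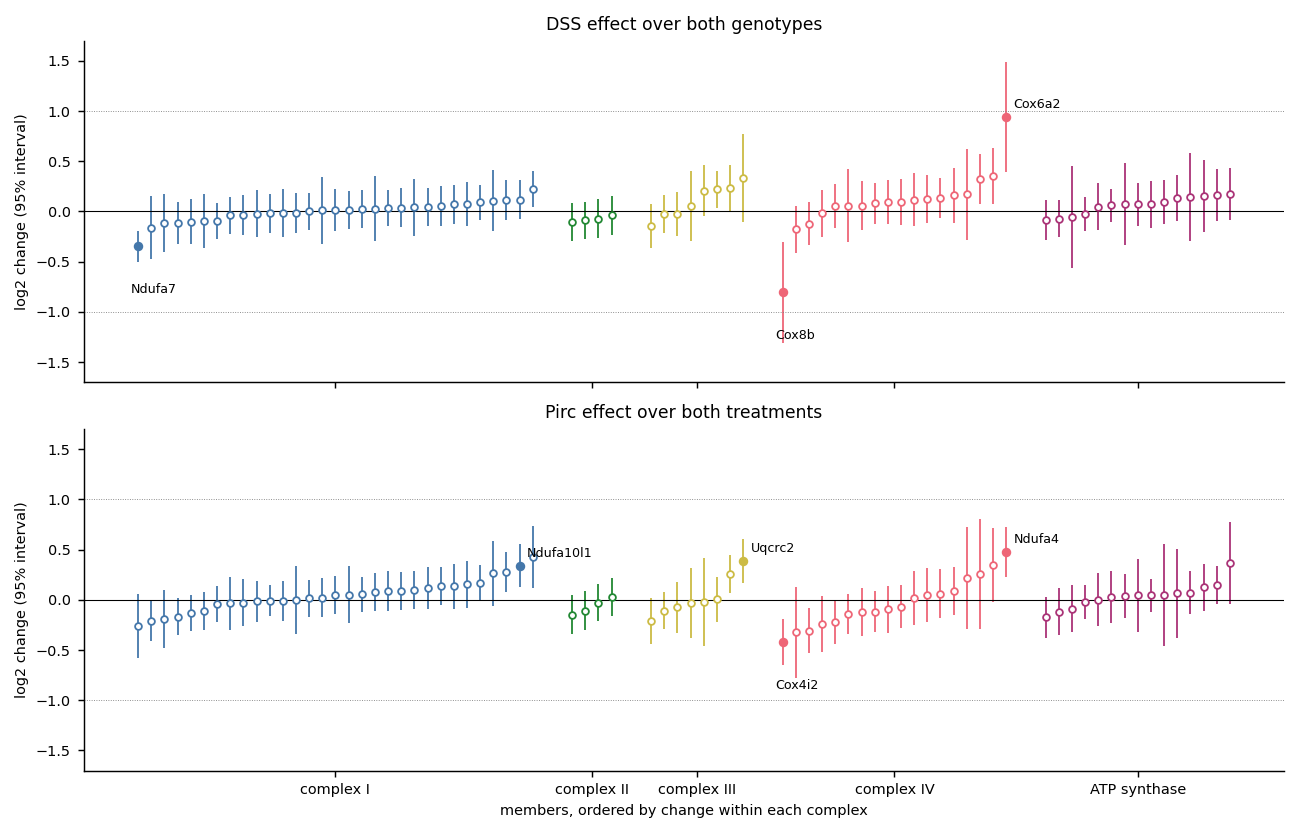
Log2 change of each of the 76 genes (points, grouped by complex on the horizontal axis) with its 95% interval (bars), for DSS against untreated over both genotypes (top) and Pirc against wildtype over both treatments (bottom). Filled points pass an adjusted p of 0.05: 3 genes for DSS and 4 for Pirc, with most intervals near 0.

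In complex I, the NADH dehydrogenase, the DSS changes of the 31 genes ran from -0.35 to 0.23 with a median of 0.01, and Ndufa7 alone passed. Ndufa7 encodes an accessory subunit. Its levels were -0.92, -0.88, -0.85 and -0.85 in untreated wildtype rats and -1.23, -1.20, -1.18 and -1.10 in wildtype rats given DSS. In Pirc rats they were -0.96, -0.93, -0.82 and -0.64 untreated and -1.33, -1.25, -1.23 and -1.13 after DSS. All 8 DSS-treated rats lay below all 8 untreated rats. Ndufa7 thus fell by 0.35 on the log2 scale (SE 0.07, n = 8 against 8, fold 0.785 with a 95% interval of 0.705 to 0.874, limma adjusted p = 0.00373), and by the same -0.35 on either slide. The change was -0.40 in Pirc rats (adjusted p = 0.0179) and -0.30 in wildtype rats, where it did not pass (adjusted p = 0.130). Next by adjusted p were Ndufs4, an accessory subunit that did not pass (0.23, interval 0.05 to 0.41, adjusted p = 0.0846), and Ndufb5 (0.12, adjusted p = 0.473).

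Complex II had the smallest range of DSS changes of the 5 complexes. The DSS changes of its 4 genes were -0.07 for Sdha, the flavoprotein that holds the succinate site, -0.04 for Sdhb, the iron-sulfur subunit, -0.09 for Sdhc and -0.11 for Sdhd, the membrane anchors. None passed, and all 4 intervals lay within a factor of 1.5.

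In complex III the median change of the 8 genes after DSS was 0.13, from -0.14 for Uqcrc2 to 0.33 for Uqcrq, and 0 of 8 passed. The core subunit Uqcrc1 came closest (0.22, interval 0.04 to 0.41, adjusted p = 0.097), followed by Uqcrb (0.23, adjusted p = 0.174) and Uqcr10 (0.21, adjusted p = 0.289). In ATP synthase the changes ran from -0.09 (Atp5if1, the inhibitor of the enzyme's ATP hydrolysis) to 0.17 (Atp5pf, in the stalk), with a median of 0.07 and 0 of 15 passing. The catalytic subunit Atp5f1b changed by 0.14 (interval -0.10 to 0.37) and Atp5mc1, of the proton-carrying ring, by 0.16 (interval -0.10 to 0.43).

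Complex IV held the largest DSS changes in both directions, and both were in forms favoured by muscle. Cox6a2 is the heart and skeletal muscle form of subunit 6a. Its levels were -8.14, -6.83, -6.48 and -6.32 in untreated wildtype rats and -7.33, -6.55, -6.28 and -6.01 in wildtype rats given DSS. In Pirc rats they were -7.42, -7.19, -7.19 and -7.10 untreated and -6.29, -5.89, -5.43 and -5.36 after DSS. The Pirc groups did not overlap and the wildtype groups did. In Pirc rats the rise was 1.48 (SE 0.36, fold 2.79, interval 1.63 to 4.78, adjusted p = 0.0135), which made Cox6a2 the only one of the 76 genes to pass with at least a factor of 2 in any of 7 comparisons (7.46% of all probes did so in this one). The change was 0.40 in wildtype rats (interval -0.38 to 1.18, adjusted p = 0.674), and the difference between the genotypes, 1.08, did not pass (interval -0.02 to 2.18, adjusted p = 0.477). Over both genotypes the change was 0.94 (fold 1.92, adjusted p = 0.0195), with 0.46 on slide 1 and 1.42 on slide 2. That call was lost after quantile normalization (adjusted p = 0.0870) and with normexp (adjusted p = 0.0980), and the call in Pirc rats was lost with normexp (adjusted p = 0.104). The probe was dim, and in untreated Pirc rat 23 and untreated wildtype rat 25, the lowest of their groups, it was not well above background.

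Cox8b, the muscle form of subunit 8 in rodents, moved the other way. Levels were -4.04, -3.64, -3.44 and -3.39 in untreated wildtype rats and -4.61, -4.59, -4.13 and -3.97 after DSS. They were -3.90, -3.62, -3.27 and -2.42 in untreated Pirc rats and -4.95, -4.44, -4.0 and -3.45 after DSS. Treated and untreated rats overlapped in both genotypes, with untreated Pirc rat 23 the highest of the 16. Over both genotypes Cox8b fell by 0.81 (SE 0.24, fold 0.572, interval 0.403 to 0.812, adjusted p = 0.0284), by 0.57 on slide 1 and 1.04 on slide 2. The call was lost (adjusted p up to 0.0584) in 6 of the 16 fits that each left out 1 rat.

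Other markers of muscle moved in both directions after DSS. Of 10 skeletal muscle markers 8 had positive changes over both genotypes (median 0.31) and 8 in Pirc rats (median 0.58). In Pirc rats 8 of the 10, counted in either direction, had an unadjusted p under 0.05. These need not be the 8 with positive changes, as Ckm and Myh4 fell there. No share of all probes is given for positive changes or unadjusted p. Over both genotypes 3 passed as higher, Acta1 (0.57), Tnni2 (0.38) and Tnnt3, whose probe was well above background on only 1 of 16 arrays. Ckm, muscle creatine kinase, well above background on all 16, fell by 0.68. Of all probes 17.2% passed in that comparison, and 20% of those above background. The myosins that define the tissue, Myh1, Myh2 and Myh4, were well above background on 2, 1 and 3 of 16 arrays, and Tnnc2 on 10. The medians of the list include these dim probes. The mean of the list relative to the 16 rats ran from -0.00 to 0.66 in DSS-treated Pirc rats and from -0.27 to 0.18 in untreated Pirc rats. Of 8 smooth muscle markers 6 had positive changes (median 0.49). Tagln, well above background on 13 arrays, rose by 2.76 and Des fell by 1.49, and the other 6 did not pass. Their part in the changes of Cox6a2 and Cox8b was not tested.

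The widely used partners of these forms stayed near their untreated level after DSS. Cox6a1 changed by 0.10 (interval -0.12 to 0.32), Cox8a by 0.05, Cox4i1 by -0.12, Cox6b1 by 0.08 and Cox7a2 by 0.12, and none passed. Cox6b2, the testis form of subunit 6b, changed by 0.35 (interval 0.07 to 0.63, adjusted p = 0.085).

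Within genotypes, DSS moved 2 of the 76 genes up and 1 down in Pirc rats (14.7% of all probes passed there) and 0 in wildtype rats (3.84% of all probes, with 1 of the 76 at an unadjusted p under 0.05). The 3 in Pirc rats were Cox6a2, Ndufa4 and Ndufa7. After quantile normalization 2 rose and 6 fell there, with no share of all probes given for that setting. Without rat 23 the count was 9 and without rat 24 it was 5. The medians were 0.10 in Pirc and -0.02 in wildtype rats, beside 0.04 and 0.09 for all probes. In wildtype rats 3 genes had all 4 treated rats above all 4 untreated and 7 had them below, where 8% and 4.44% of all probes did. In Pirc rats 2 genes had them above and 1 below, where 8.88% and 8.06% of all probes did. In the test of the difference between the DSS effects, 0 of the 76 genes and 13 probes of 30367 (0.0428%) passed in limma, with 1 of the 76 at an unadjusted p under 0.05.

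Pirc rats differed from wildtype rats in a few single subunits. Over both treatments 3 genes were higher in Pirc (Ndufa4, Uqcrc2 and Ndufa10l1) and 1 was lower (Cox4i2), 5.26% of the 76 where 17.5% of all probes passed and 24.4% of those above background. After quantile normalization 6 were higher and 12 lower, and without DSS-treated Pirc rat 16 the count of 4 became 7. The median change was 0.02 for the 76 genes and -0.06 for all probes. Intervals lay within a factor of 1.5 for 66 of 76 genes (86.8%) and 43.4% of all probes, and within a factor of 2 for all 76.

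Ndufa4, named for complex I but now assigned to cytochrome c oxidase, stood out in 1 group. It had levels of 3.03, 3.16, 3.27 and 3.30 in untreated wildtype rats and 3.02, 3.15, 3.24 and 3.33 in wildtype rats given DSS. In Pirc rats levels were 2.95, 3.22, 3.32 and 3.88 untreated and 3.88, 3.93, 4.06 and 4.10 after DSS. The 4 DSS-treated Pirc rats lay above every wildtype rat and above 3 of the untreated Pirc rats, and rat 23, the highest untreated Pirc rat, was level with the lowest of them. Among DSS-treated rats Ndufa4 was higher in Pirc by 0.81 (SE 0.17, fold 1.75, interval 1.37 to 2.23, adjusted p = 0.00559), the only one of the 76 genes to pass there (1.32%, where 18.2% of all probes passed), while after quantile normalization 2 were higher and 11 lower. The count there was 2 without rat 11, 16 or 24 and 3 without rat 23 or 26. Over both treatments it was higher by 0.48 (fold 1.39, adjusted p = 0.0127). DSS changed it by 0.65 in Pirc rats (SE 0.17, fold 1.57, adjusted p = 0.0163), with 0.88 on slide 1 and 0.42 on slide 2, and by -0.01 in wildtype rats (interval -0.36 to 0.35). The difference between those effects, 0.66 with an interval of 0.16 to 1.15, did not pass (adjusted p = 0.339). The call for DSS in Pirc rats was lost with only the compared groups in the fit (adjusted p = 0.0996) and without rat 11 (adjusted p = 0.0546).

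Cox4i2, the form of subunit 4 best known from lung, was lower in Pirc. Levels were 3.01, 3.01, 3.03 and 3.1 in untreated and 2.94, 3.07, 3.16 and 3.21 in DSS-treated wildtype rats. They were 2.39, 2.51, 2.55 and 2.86 in untreated and 2.36, 2.64, 2.76 and 3.11 in DSS-treated Pirc rats. Apart from DSS-treated Pirc rat 16 every Pirc rat lay below every wildtype rat. The difference was -0.42 (SE 0.11, fold 0.748, interval 0.638 to 0.877, adjusted p = 0.0159), with -0.35 on slide 1 and -0.49 on slide 2. The common form Cox4i1 differed by -0.07 and did not pass.

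Uqcrc2, a core protein of complex III, was higher in Pirc by 0.39 (SE 0.10, fold 1.31, adjusted p = 0.019). Levels ran from 2.93 to 3.06 in untreated wildtype rats and from 3.28 to 3.62 in untreated Pirc rats, with no overlap. After DSS they were 2.79, 2.81, 2.89 and 3.33 in wildtype and 3.04, 3.14, 3.26 and 3.54 in Pirc rats, which overlapped through wildtype rat 26. Ndufa10l1, a close relative of the complex I gene Ndufa10, was higher in Pirc by 0.34 (SE 0.10, fold 1.27, adjusted p = 0.0316), and its second probe gave 0.31 (adjusted p = 0.0349). Its levels ran from 3.35 to 3.71 in the 8 wildtype rats and from 3.47 to 4.11 in the 8 Pirc rats, so the genotypes overlapped. Ndufa10 itself differed by 0.01. Probes of near-identical genes can bind RNA of either, and the call for Ndufa10l1 was lost (adjusted p up to 0.0688) in 9 of 16 fits without 1 rat.

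**Figure D2:**
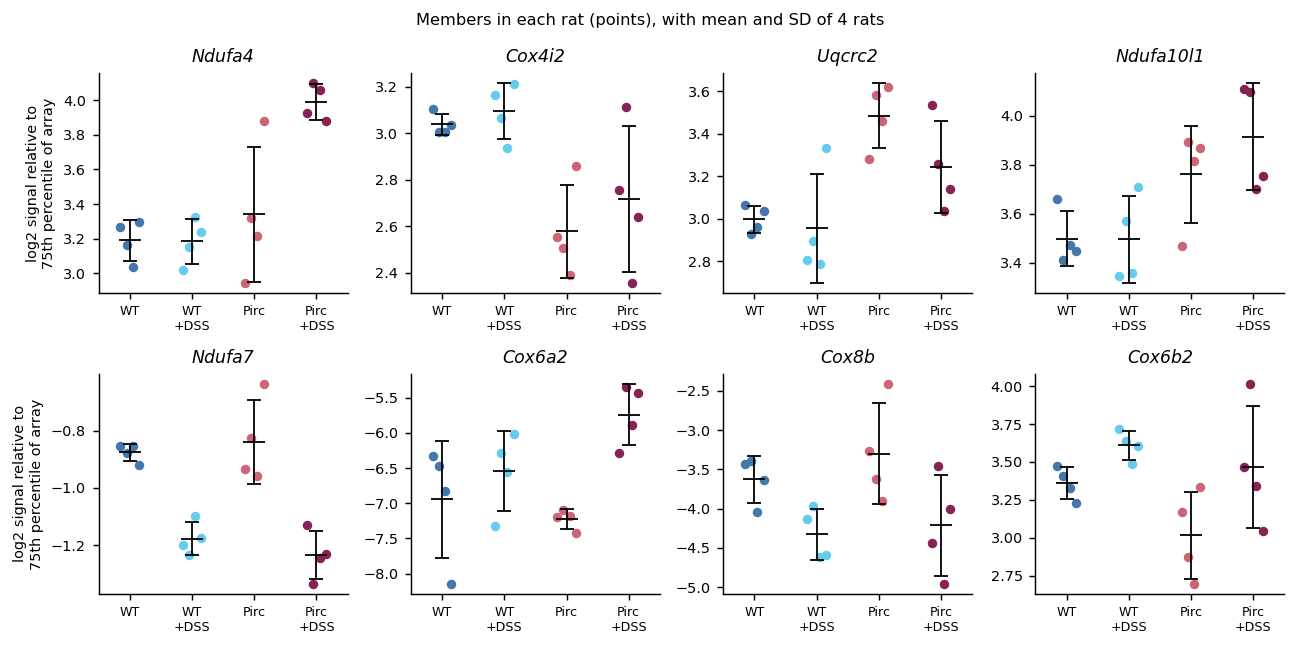
Log2 level relative to the array's 75th percentile in each rat (points) with the mean and SD of the 4 rats of a group, for 8 genes. Ndufa4 is high in DSS-treated Pirc rats (3.88 to 4.10), Cox4i2 is low in most Pirc rats, and Ndufa7 is low in all DSS-treated rats (-1.33 to -1.10).

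The rest of the chain differed less between genotypes. In complex I the accessory subunit Ndufa5 (0.43, adjusted p = 0.0519) and the iron-sulfur subunit Ndufs8 (0.28, adjusted p = 0.0543) did not pass, nor did Uqcrfs1, the Rieske iron-sulfur protein of complex III (0.26, adjusted p = 0.0588). Cox6a1 was at -0.31 (interval -0.53 to -0.09, adjusted p = 0.0543), Cox8a at -0.22 and Cox7b at 0.35. The Sdh genes lay between -0.15 (Sdhb) and 0.03 (Sdhd), all intervals within a factor of 1.5. In ATP synthase 0 of 15 passed, with Atp5mk at 0.37 (interval -0.04 to 0.78), Atp5if1 at -0.17 and Atp5f1c, the rotating gamma subunit, at 0.15. In untreated rats alone 0 of the 76 genes passed, as did 0 of all probes (0%), with 5 of the 76 at an unadjusted p under 0.05, and the lowest and highest of the 76 were -0.46 (Cox4i2) and 0.49 (Uqcrc2). There 2 genes had all Pirc rats above all wildtype rats and 3 had them below, where 4.69% and 4.02% of all probes did. Among DSS-treated rats these counts were 5 and 2, where 9.62% and 9.13% of all probes did.

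The genes rose and fell together from rat to rat more than between groups. Averaged over the 76 genes, relative to each gene's mean over the 16 rats, all 8 wildtype rats lay between -0.07 and 0.08. Pirc rats spread wider: untreated rats 11, 15, 19 and 23 were at -0.21, -0.09, -0.18 and 0.33, and DSS-treated rats 12, 16, 20 and 24 at 0.16, 0.32, -0.16 and -0.11. The SD within a group was 0.252 and 0.225 in the untreated and treated Pirc groups and 0.0647 and 0.0519 in the wildtype groups, which is a description of 4 rats each.

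**Figure D3:**
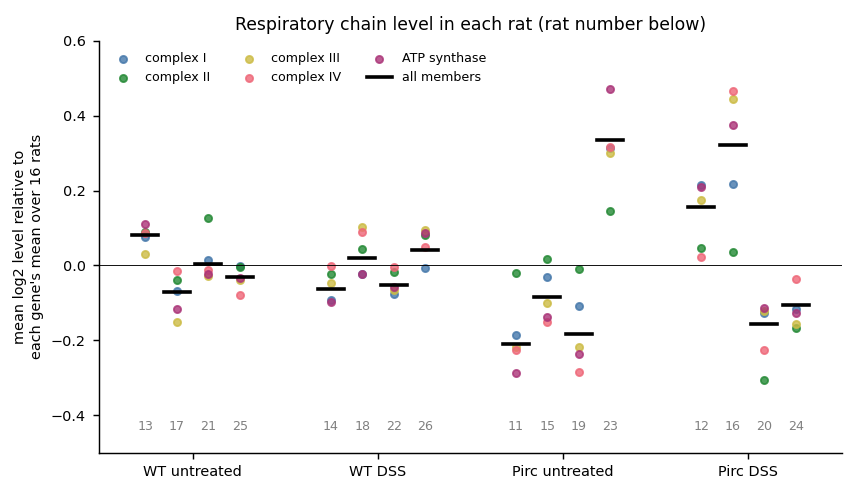
Mean log2 level of the genes of each complex (coloured points) and of all 76 genes (black bars) in each rat, relative to each gene's mean over the 16 rats. Pirc rats 16 and 23 are high (0.32 and 0.33) and the 8 wildtype rats lie between -0.07 and 0.08.

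Pirc rats 16 and 23 also had the lowest 75th percentile of signal among Pirc arrays (875.36 and 1063.27). The mean of the brightest 10% of all other probes lay at 0.21 and 0.18 in these rats, and the probes of the 76 genes are bright as well (median percentile 96.0 of all probes by signal). How far the 2 deviations share a cause was not tested. After quantile normalization, which gives every array the same distribution, the 76-gene mean was 0.08 in rat 16 and 0.12 in rat 23. Over the 16 rats the deviations of 2 of the genes from their group means had a median correlation of 0.72 (2850 pairs, 95.6% above 0), highest within ATP synthase (0.85) and lowest within complex II (0.44). After quantile normalization the median was 0.37 and the order of the complexes changed. Complex II, with only 6 pairs, was then highest (0.47), ATP synthase had 0.42 and complex IV was lowest (0.32). For bright probes outside the set the median was 0.16 and, after quantile normalization, 0.00. In the same order, the mitochondrial ribosomal proteins described below had 0.50 and 0.41, and assembly factors 0.36 and 0.31. Citrate cycle and pyruvate dehydrogenase genes had 0.33 and 0.34, carriers 0.12 and 0.03, and biogenesis regulators 0.10 and 0.08. Such joint movement was therefore not particular to the chain. These are descriptions over rats that share scaling and slide.

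For slide itself 0 of the 76 genes and 881 of all probes passed, but the DSS change in Pirc rats differed between the 2 slides. The median DSS change of the 76 genes in Pirc rats was 0.39 on slide 1, with rats 11 and 15 against 12 and 16, and -0.20 on slide 2, with 19 and 23 against 20 and 24. All probes had medians of 0.16 and -0.12 there. In wildtype rats the medians of the 76 genes were -0.04 and 0.01. These medians rest on 2 rats of a group on each slide. Rat 16, high and treated, lay on slide 1, and rat 23, high and untreated, lay on slide 2. Their part in the opposite signs was not tested. The changes of Ndufa7, Cox6a2 and Ndufa4 had the same sign on both slides.

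A scale that takes out this common movement, the mean of the 74 genes above background on the same array, was added after the values were seen. On it 4 genes were higher in Pirc over both treatments (Ndufa4, Ndufa5, Uqcrc2 and Ndufa10l1) and 2 were lower (Cox4i2 and Cox6a1). The shares of all probes that passed or did not overlap on this scale are not given, so these counts have no background beside them. Cox6a1, the common form of subunit 6a, lay between 3.07 and 3.16 in the 8 wildtype rats and between 2.66 and 2.99 in the 8 Pirc rats, with no overlap (-0.32, SE 0.08, adjusted p = 0.0162). Cox4i2 lay between -1.23 and -1.0 in wildtype and between -1.71 and -1.41 in Pirc rats, again with no overlap (-0.44, SE 0.08, adjusted p = 0.00609). Ndufa5 ran from 0.23 to 0.69 in wildtype and from 0.72 to 1.21 in Pirc rats (0.41, SE 0.10, adjusted p = 0.0205). Ndufa4 was at -0.46 to 0.00 in DSS-treated Pirc rats and at -1.19 to -0.69 in all others. In untreated Pirc rats Ndufa4 ran from -1.07 to -0.69 and overlapped the wildtype rats, at -1.19 to -0.84. The scale sets the chain's own mean to 0, so that some of its genes must lie above and some below, and these 4 genes were chosen after their values were seen.

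**Figure D4:**
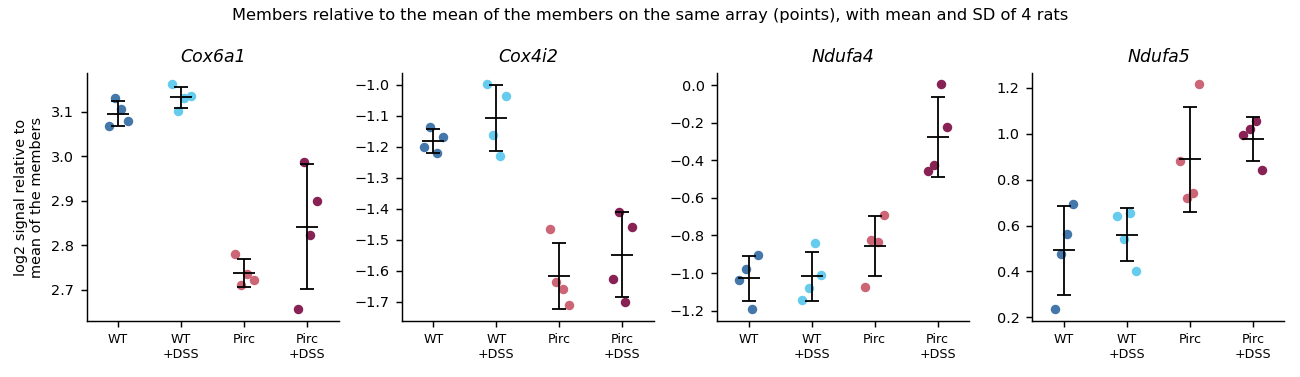
Log2 level of Cox6a1, Cox4i2, Ndufa4 and Ndufa5 in each rat relative to the mean of the chain genes on the same array (points, with the mean and SD of 4 rats). On this scale wildtype and Pirc rats do not overlap for Cox6a1 (3.07 to 3.16 against 2.66 to 2.99), Cox4i2 or Ndufa5. The scale and these genes were chosen after the values were seen, and the share of all probes without overlap is not given.

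Other mitochondrial genes were compared by lists, described by counts beside those of all probes. Of 18 citrate cycle and pyruvate dehydrogenase genes 0 passed for DSS in limma (17.2% of all probes passed), and 2 had an unadjusted p under 0.05. Over both treatments 2 of the 18 were lower in Pirc (11.1%, where 17.5% of all probes passed). They were Pc, pyruvate carboxylase (-0.53, adjusted p = 0.00879), and Idh3a, of isocitrate dehydrogenase (-0.39, adjusted p = 0.0102). Among DSS-treated rats Pc differed by -0.95 and Idh3a by -0.60. In untreated rats neither passed. The mean of Pc there was 2.69 in Pirc and 2.81 in wildtype rats, and that of Idh3a 0.16 and 0.34. Of 43 assembly factors, which build the complexes but are not part of them, 1 rose after DSS (Cox11, 0.47) and 2 fell (Lyrm7, -0.49, and Cmc1, -0.48), 6.98% where 17.2% of all probes passed. In Pirc 6 of the 43 were higher and 0 lower (14% where 17.5% of all probes passed), led by the complex I factors Ndufaf4 (0.97, adjusted p = 0.00398) and Acad9 (0.39, adjusted p = 0.0082).

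Mitochondrial ribosomal proteins, which translate the subunits encoded in mitochondrial DNA, were counted in the same way. Of 66, 18 were higher in Pirc over both treatments and 1 was lower (28.8% where 17.5% of all probes and 24.4% of those above background passed, as all 66 are), with a median of 0.23, and Mrpl38 (0.76, adjusted p = 0.00342) and Mrps11 (0.49, adjusted p = 0.0042) had the lowest adjusted p. Mrpl14 was lower (-0.48). After DSS over both genotypes the median was -0.00, with 1 higher and 3 lower. Under the alternatives tried 12 to 21 were higher and 1 lower in Pirc. The 13 subunits encoded in mitochondrial DNA had no probe matched here and were not analysed.

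**Figure D5:**
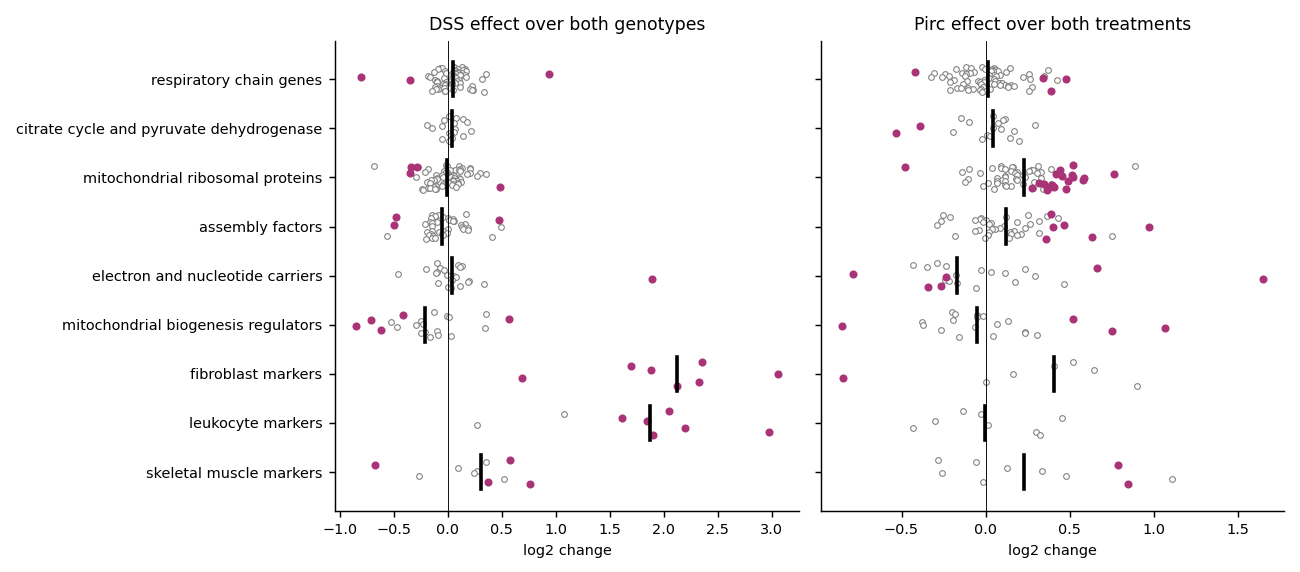
Log2 change of the genes of 9 lists (points, filled where the adjusted p is 0.05 or less; black bar, median), for DSS over both genotypes and Pirc over both treatments. The chain has 3 and 4 filled points of 76, and ribosomal proteins of mitochondria have 19 of 66 for Pirc with a median of 0.23.

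Among the carriers and regulators around the chain some genes changed by more than a factor of 2. Slc25a4, the ADP/ATP carrier of heart and muscle, had levels of -4.09, -3.69, -3.43 and -3.28 in untreated and -2.79, -2.71, -2.54 and -1.95 in DSS-treated wildtype rats. In Pirc rats it was at -3.39, -2.83, -2.46 and -2.24 untreated and -0.47, -0.45, 0.27 and 0.33 after DSS, so treated rats lay above untreated in both genotypes. DSS raised it by 2.65 in Pirc rats (SE 0.28, fold 6.29, adjusted p = 0.000103) and by 1.13 in wildtype rats (fold 2.18, adjusted p = 0.0411), and the difference of 1.53 did not pass (interval 0.67 to 2.39, adjusted p = 0.222). The call in wildtype rats held in 14 of the 28 settings tested (adjusted p up to 0.122) and was lost after quantile normalization and with normexp. The widely used carrier Slc25a5 changed by 0.04. Slc25a4 was the 1 of 22 carriers to pass for DSS over both genotypes, where 17.2% of all probes and 20% of those above background passed.

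Ppargc1a, the coactivator known as PGC-1 alpha that switches on respiratory genes, was lowest in the DSS-treated Pirc rats. It had levels of -1.28, -1.26, -1.23 and -0.67 in untreated and -1.74, -1.16, -1.15 and -1.07 in DSS-treated wildtype rats, and of -1.82, -1.35, -1.20 and -0.78 in untreated Pirc rats. In DSS-treated Pirc rats it was at -3.65, -2.75, -2.65 and -2.18, below all 12 others. DSS changed it by -1.52 in Pirc rats (SE 0.29, fold 0.349, adjusted p = 0.00285) and by -0.17 in wildtype rats (adjusted p = 0.822), a difference of -1.35 that did not pass (interval -2.22 to -0.48, adjusted p = 0.280). In the same rats the 76 genes had a median change of 0.10, and of 0.01 to 0.22 when 1 rat was left out. After quantile normalization the 76-gene mean ran from -0.19 to 0.08 in DSS-treated and from -0.10 to 0.12 in untreated Pirc rats.

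Of 21 biogenesis regulators 1 rose and 4 fell after DSS over both genotypes (23.8%, where 17.2% of all probes and 20% of those above background passed). Polg, the mitochondrial DNA polymerase, rose by 0.56, with 1.04 in Pirc rats (limma adjusted p = 0.00279). In wildtype rats the mean level of Polg was -1.43 untreated and -1.34 after DSS, and the change did not pass. Its accessory subunit Polg2 fell by 0.71 (adjusted p = 0.000989). Sirt3, a mitochondrial deacetylase, fell by 0.62 (adjusted p = 0.000647), with -0.63 in Pirc and -0.60 in wildtype rats, and Gabpa, of the GABP factor, fell by 0.42. In Pirc, Pprc1, a relative of Ppargc1a, was higher by 1.07 (fold 2.1, adjusted p = 0.0017) and Ssbp1, which coats single-stranded mitochondrial DNA, by 0.75 (fold 1.68, adjusted p = 0.00183), while Ppargc1a was lower by 0.86.

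Markers of cell types moved with DSS and with genotype. Fibroblast markers rose for 7 of 7 (median 2.12), leukocyte markers for 6 of 8 (median 1.87), squamous and urothelial markers for 7 of 9 and adipocyte markers for 3 of 5. For DSS over both genotypes 17.2% of all probes passed in either direction, and 20% of those above background. Of 11 colonocyte markers Car4 rose by 0.71 and Slc26a3 fell by 0.74, with -1.72 in Pirc rats. In the mean of each list per rat, fibroblast markers ran from -1.28 to -0.60 in untreated and from -0.29 to 2.09 in DSS-treated rats, relative to the 16 rats, and leukocyte markers from -1.22 to -0.21 and -0.21 to 1.37. In Pirc over both treatments 4 of 11 colonocyte markers were lower and 0 higher (Slc26a3 -1.27, Guca2a -0.96), with 5 of 11 lower among DSS-treated rats. Of all probes 17.5% passed in either direction over both treatments (24.4% of those above background) and 18.2% among DSS-treated rats. In Pirc over both treatments all 8 smooth muscle markers had negative changes, of which Mylk passed (-1.03), and 3 of 9 squamous and urothelial markers were higher. The mean of the smooth muscle list was 1.87 and 2.43 in wildtype rats 25 and 26. It ran from -0.65 to 0.37 in the other wildtype rats and from -0.92 to 1.19 in Pirc rats, so the genotypes overlapped. Their part in the values of the chain, for DSS and for Pirc, was not tested.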

How the data were processed

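RNA of normal distal colon from 16 rats was hybridised to 1-colour Agilent arrays. The values deposited are each array's scanner output from Feature Extraction 10.7.3.1. Its processed signal is an intensity from which the authors' software had already subtracted the background, linear and with no scaling between arrays. Partek is named in the submitters' processing notes. The arrays were designed on the rat build rn4, and probe accessions were looked up in RefSeq for GRCr8 (18006 of 30367 probes matched, to 15159 symbols), from which the promoters come too. Here control spots and outlier-flagged spots were left out, the log2 signal was taken relative to the 75th percentile of its array, spots were averaged per probe, and limma 3.58.1 under R 4.3.3 (with lmFit and eBayes, 16 arrays, 1 mean per group, 7 comparisons) gave p-values, adjusted by Benjamini-Hochberg over all 30367 probes. They measure the spread between these rats, and the 4 arrays per group limit the precision. The threshold was an adjusted p of 0.05, with the study's minimum of a factor of 2 counted beside it. No 2 arrays held identical values (0 of 120 pairs, correlations 0.9593 to 0.9928).

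Genes were named by a rule: those passing with a factor of 2, the 3 with the lowest adjusted p per complex for DSS and for Pirc, the largest rise and fall of each comparison, the Sdh genes and tissue-restricted forms, and up to 2 per direction from each other list. The members and lists were chosen with earlier results of these data known. Python 3.11.15, pandas 2.3.3 and matplotlib 3.10.9 read the files and drew the figures, and the fits were tested on simulated data. The alternatives were quantile normalization, normexp with an offset of 50, slide as a block, a filter on dim probes, outlier spots kept, probes of a gene averaged, only the compared groups, no moderation and each rat left out. Array row as a block, scaling to the median of detected probes and to the mean of the chain genes, and the share passing among detected probes were chosen after seeing the data.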

Additional observations from a re-analysis of the deposited data

Results flagged for a closer look

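In groups of 4 rats, 1 rat stood far from the other 3 (a gap of over 0.829 of the group's range) in 11 of 136 groups checked, where chance gives about 1 in 20, or 6.8. All 11 were high. Untreated Pirc rat 23 accounted for 8 of them: Ndufa1 at 5.98, Ndufa5 at 5.78 and Sdhb at 3.82 in complexes I and II, Uqcrb at 5.62 in complex III, Cox6a1 at 7.29 and Cox7a2 at 5.53 in complex IV, and Atp5mc1 at 6.34 and Atp5mk at 5.83 in ATP synthase, all log2 levels relative to the array's 75th percentile. Untreated wildtype rat 13 was high for Uqcrfs1 (4.04). DSS-treated wildtype rat 26 was high for Uqcrfs1 (4.01) and Atp5mc1 (6.21).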

How the results depend on the processing

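No paired analysis was possible because the rat numbers are unique to each group. Of the 76 genes, 3 passed for DSS over both genotypes, and 10 after quantile normalization (3 higher, 7 lower), 1 with normexp, 5 with the filter on dim probes and 5 without moderation. For DSS in Pirc rats 3 passed, 8 after quantile normalization and 1 with only the compared groups. For DSS in wildtype rats 0 passed, and 1 without moderation. For Pirc over both treatments 4 passed, 18 after quantile normalization, 8 with normexp, 8 with the filter, 7 without moderation and 7 with probes averaged. For Pirc in DSS-treated rats 1 passed, 13 after quantile normalization, 2 with normexp, 3 with the filter, 3 without moderation, 2 scaled to the median of detected probes and 3 scaled to the mean of the chain genes. The share of all probes passing is not given for these alternatives, so their counts have no background beside them. The cause of these differences was not tested. Leaving out 1 rat gave 2 to 6 for DSS over both genotypes (6 without untreated Pirc rat 23, 5 without treated Pirc rat 24), 2 to 9 for DSS in Pirc rats (9 without rat 23, 5 without rat 24), 0 for DSS in wildtype rats, 3 to 7 for Pirc over both treatments (7 without treated Pirc rat 16), 0 in untreated rats, 1 to 3 in DSS-treated rats (2 without rat 11, 16 or 24, 3 without rat 23 or 26) and 0 for the difference. Ndufs4 turned from 0.23 to -0.0321 for DSS with probes averaged, its second probe being dim. Cox6a2 did not pass over both genotypes after quantile normalization (adjusted p = 0.0870) or with normexp (0.0980), nor in Pirc rats with normexp (0.104), and Cox8b did not with normexp (0.159). With only the compared groups, Ndufa7 (0.133) and Ndufa4 (0.0996) did not pass for DSS in Pirc rats, nor did Ndufa7 without rat 15 (0.0522) or Ndufa4 without rat 11 (0.0546). The median of all probes moved with the setting, for DSS from 0.06 to -0.06 with quantile normalization and for Pirc from -0.06 to -0.18 with normexp. Since each group lay in 1 array column, an effect of column cannot be told apart from the groups. For slide 881 probes and 0 of the 76 genes passed, and for array row 0 and 0.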

Other observations

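Of 11 measured targets of the hypoxia response, Ero1a (an oxidase of protein folding, 0.56, adjusted p = 0.00112) and Ldha (lactate dehydrogenase, 0.59, adjusted p = 0.00357) rose after DSS over both genotypes in limma (18.2% of the list, where 17.2% of all probes and 20% of those above background passed). Bnip3, which marks mitochondria for removal, was lower in Pirc over both treatments (-1.16, adjusted p = 0.0129), and Ero1a was higher there (0.37, adjusted p = 0.0198). Among DSS-treated rats these differences were -1.54 for Bnip3 and 0.60 for Ero1a. Among the carriers, Dhodh, the mitochondrial enzyme of pyrimidine synthesis, was higher in Pirc over both treatments (0.66, adjusted p = 0.0062). Higd1a (-0.79, adjusted p = 0.0294) and the outer membrane channel Vdac2 (-0.34, adjusted p = 0.0397) were lower. Among DSS-treated rats Dhodh differed by 1.02 and Higd1a by -1.35. In untreated rats the mean of Dhodh was -0.01 in Pirc and -0.30 in wildtype rats, and that of Higd1a -0.75 and -0.52. No probe passed for Pirc in untreated rats.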
